A study of Capra hircus with 6 samples.

Results

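Melatonin is made from tryptophan in the pinealocytes of the pineal gland. TPH1 hydroxylates tryptophan, DDC decarboxylates the product to serotonin, AANAT acetylates serotonin and ASMT methylates N-acetylserotonin to melatonin. Monoamine oxidases, MAOA and MAOB, are flavin enzymes of the outer mitochondrial membrane that deaminate serotonin and other amines and so draw on the same serotonin pool. The members examined were the 5 genes TPH1, DDC, ASMT, MAOA and MAOB, chosen by symbol among the 28244 genes of the deposited tables. Of these, 4 had a row and all 4 passed the filter on low counts, whereas MAOA matched no symbol and was not analysed here.

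Pineal glands of untreated female goats (Capra hircus) were profiled by RNA sequencing at puberty (3 libraries) and before puberty (3 libraries). Puberty had been recognised from an inflamed vulva and from mature follicles seen in ovary sections. Neither age, breed nor hour of collection is stated in the sources used here. Whether the 3 libraries of a stage come from 3 different goats is not stated either, and p-values therefore reflect only how these libraries varied, part of which may be technical.

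The 3 puberty libraries held 18963195 to 20971065 counts and the 3 prepuberty libraries 18864451 to 20247370. Pinealocyte markers were abundant in every library, with summed levels of 7912 to 8332 CPM (counts scaled to the TMM-normalised library size) at puberty and 6125 to 8258 CPM before puberty. The transcription factor gene CRX averaged 914 CPM at puberty and 994 CPM before puberty. Puberty replicate 2 stood apart in TTR, a choroid plexus gene, with 9446, 188338 and 4151 TTR counts in puberty replicates 1, 2 and 3 and 1534 to 6101 in the prepuberty libraries. Prepuberty replicate 2 stood apart in GAD1, a gene of inhibitory neurons, which had 53 to 97 counts in the puberty libraries and 72, 719 and 59 in prepuberty replicates 1, 2 and 3. In whole tissue, fewer cells of a type and less RNA per cell cannot be told apart.

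None of the 4 measured members was called at puberty. The first, second and last enzymes of melatonin synthesis had estimated folds close to 1, and the estimate for MAOB was 1.58-fold at an adjusted p of 0.14. Of the 16588 genes tested with edgeR's quasi-likelihood test (Benjamini-Hochberg adjusted p under 0.05), 11.5% were called, 5.85% higher and 5.64% lower at puberty. At an unadjusted p under 0.05, 1 of the 4 members passed, MAOB, and 4807 of all tested genes did. DESeq2 also called 0 of the 4 members, as did limma-voom. Without prepuberty replicate 1, edgeR called 0 of all genes, with 3924 at an unadjusted p under 0.05, so each call given below was lost there. Without any 1 of the other 5 libraries it called 268 to 728 genes higher and 263 to 540 lower. The CPM values of the 2 groups overlapped in all 4 members, whereas 34.8% of all tested genes had groups that did not overlap.

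TPH1, the first enzyme of the pathway, was estimated at 1.1-fold of its prepuberty level, within the spread of the libraries. It lies on chromosome 15 from 47859440 to 47897611 on the minus strand in the deposited annotation. It had 65176, 40603 and 45111 counts in puberty replicates 1, 2 and 3, against 42493, 53529 and 40199 counts in prepuberty replicates 1, 2 and 3. Puberty replicate 1 was the highest library and prepuberty replicate 2 the next, and the other 4 libraries lay close together in both stages. Per library size this was 2538 ± 575 CPM at puberty and 2300.5 ± 287 CPM before puberty (SD, n = 3 each), a log2 fold change of 0.14 (SE 0.17, 95% interval -0.23 to 0.52, adjusted p = 0.61). The interval runs from 0.85-fold to 1.43-fold. Counting error was at most 0.499% in a library, against a coefficient of variation of 22.7% among puberty libraries and 12.5% among prepuberty libraries. Without puberty replicate 1 the log2 fold change was -0.06.

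DDC, the aromatic amino acid decarboxylase that turns 5-hydroxytryptophan into serotonin, was the member with the smallest estimated difference. It lies on chromosome 4 from 115071177 to 115162539 on the minus strand. Its counts were 9447, 6997 and 8951 at puberty and 9664, 6491 and 8560 before puberty. In both stages replicate 2 was the lowest library and replicate 1 the highest, and the ranges overlapped almost fully. DDC averaged 428 ± 46.8 CPM at puberty and 420 ± 91.7 CPM before puberty (SD, n = 3 each), with a log2 fold change of 0.03 (SE 0.16, 95% interval -0.35 to 0.40, adjusted p = 0.94). The interval runs from 0.786-fold to 1.32-fold, and leaving out single libraries gave log2 fold changes of -0.13 to 0.18.

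AANAT, the acetyltransferase between serotonin and melatonin, is no symbol of the deposited tables. In the RefSeq gene table of the goat assembly ARS1.2, 2 genes named AANAT are the only genes between RHBDF2 and UBE2O. The deposited tables list 2 unnamed protein-coding genes between the same neighbours, at overlapping positions, both with the acetyltransferase family label Acetyltransf_1. The files do not pair these identifiers with the name, so they are given by identifier, and they were picked after their values were seen. ENSCHIG00000021269, on chromosome 19 from 54510335 to 54513036 on the minus strand, had 16445, 16434 and 14816 counts at puberty and 13412, 13932 and 13484 before puberty. Every puberty library lay above every prepuberty library, as was the case for 34.8% of tested genes in one direction or the other.

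The level of ENSCHIG00000021269 was 808 ± 72.7 CPM at puberty and 691 ± 8.52 CPM before puberty (SD, n = 3 each). The difference of 1.17-fold (log2 fold change 0.22, 95% interval 0.01 to 0.44) was not called (adjusted p = 0.16). The second gene, ENSCHIG00000017245, was near the limit of detection, with 6, 6 and 3 counts at puberty and 6, 3 and 0 counts before puberty. The expressed gene of the pair was less variable than TPH1, DDC and ASMT. Its biological coefficient of variation was 0.107, against 0.157, 0.153 and 0.205 for these members.

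ASMT, which catalyses the last step, had the highest biological coefficient of variation of the measured synthesis enzymes, although among prepuberty libraries alone DDC varied more (coefficient of variation 21.8%, against 15.5% for ASMT). It lies on an unplaced scaffold of the deposited annotation. It had 14744, 24392 and 25697 counts in puberty replicates 1, 2 and 3 and 23540, 18332 and 19037 counts in prepuberty replicates 1, 2 and 3. Both the lowest library, puberty replicate 1, and the 2 highest, puberty replicates 2 and 3, were of the puberty group, so the puberty range enclosed the prepuberty range. The mean was 1102 ± 328 CPM at puberty and 1033 ± 160 CPM before puberty (SD, n = 3 each), with a log2 fold change of 0.09 (SE 0.23, 95% interval -0.45 to 0.63, adjusted p = 0.83). The interval runs from 0.734-fold to 1.55-fold. Without puberty replicate 1 the log2 fold change was 0.32 (adjusted p = 0.20), and without puberty replicate 2 it was -0.05.

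A strongly transcribed locus without a name begins 8 nt beyond the listed end of ASMT. It is annotated on the opposite strand over 3717 nt, but the library kit does not mark strand, so reads of the locus and of ASMT cannot be assigned to a strand. Whether its reads belong to ASMT transcripts was not tested. It had 11402, 33524 and 64807 counts in puberty replicates 1, 2 and 3 and 33157, 42673 and 21147 counts in prepuberty replicates 1, 2 and 3. Like ASMT it was lowest in puberty replicate 1, and its highest library, puberty replicate 3, was among the 2 highest for ASMT, but in the prepuberty libraries the orders differed. The locus had 0.773, 1.37 and 2.52 reads per ASMT read at puberty and 1.41, 2.33 and 1.11 before puberty. Its biological coefficient of variation of 0.539 was higher than that of 98.4% of tested genes, and its log2 fold change of 0.19 (95% interval -1.49 to 1.86, adjusted p = 0.88) was not called. The sum of both was 1284, 3103 and 4490 CPM at puberty and 2915, 2995 and 2088 CPM before puberty, again with the puberty libraries at both ends. A second unnamed gene, of the actin family, lies within the span of ASMT on the other strand, with 485 to 760 counts at puberty and 507 to 852 before puberty.

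**Figure D1:**
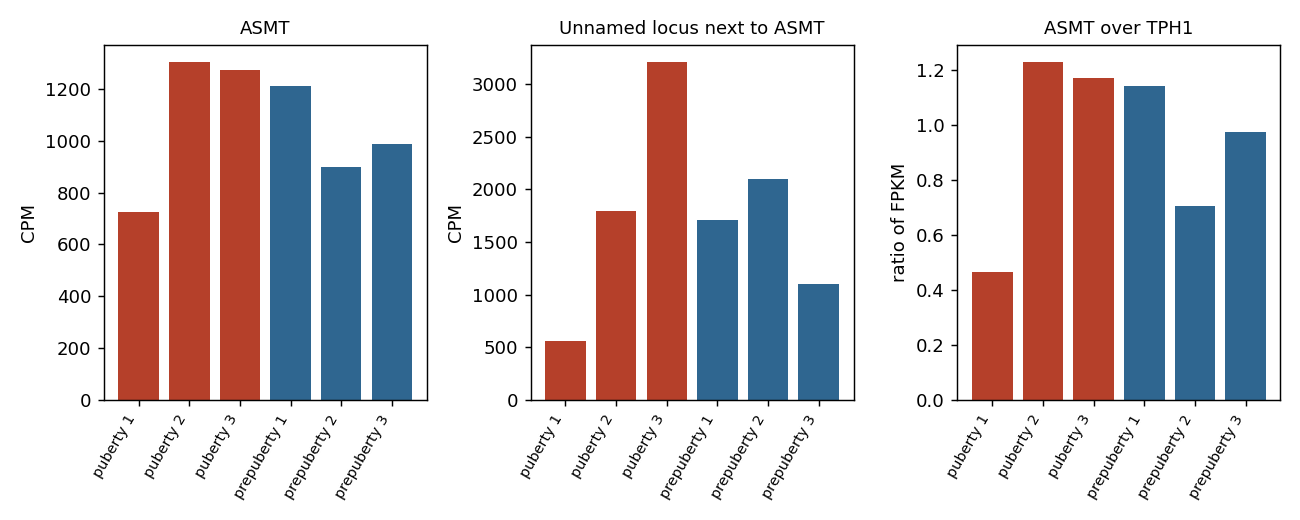
Bars give 1 library each, puberty in red and prepuberty in blue: CPM of ASMT (left), CPM of the unnamed locus that begins 8 nt beyond it (middle) and the ratio of ASMT to TPH1 in FPKM (right). Puberty replicate 1 is lowest in all 3 panels, and the ratio runs from 0.464 to 1.23 over the puberty libraries.

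Levels of different genes were compared in FPKM, which divides by gene length. TPH1 averaged 1188 ± 268 FPKM at puberty and 1075 ± 134 FPKM before puberty, and ASMT 1059 ± 315 FPKM at puberty and 991 ± 153 FPKM before puberty (SD, n = 3 each). These 2 enzymes did not differ beyond their spread: ASMT was above TPH1 in puberty replicates 2 and 3 and in prepuberty replicate 1, and TPH1 above ASMT in puberty replicate 1 and prepuberty replicates 2 and 3. Among all 28244 genes TPH1 ranked between 30 and 85 and ASMT between 32 and 138 by FPKM, depending on the library. ENSCHIG00000021269 followed with 424 to 510 FPKM at puberty and 394 to 404 FPKM before puberty.

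DDC came next at 69.8 to 86.2 FPKM at puberty and 59.1 to 92.2 FPKM before puberty, and MAOB last at 8.18 to 15.9 FPKM at puberty and 6.06 to 8.34 FPKM before puberty. The ranges of ASMT, ENSCHIG00000021269, DDC and MAOB did not overlap with one another over the 6 libraries. The listed lengths behind these levels are 2131 nt for TPH1, 1038 nt for ASMT, 1726 nt for ENSCHIG00000021269, 5367 nt for DDC and 1101 nt for MAOB. How much untranslated sequence each length holds and whether each listed gene is complete were not determined, and the order in FPKM depends on both.

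**Figure D2:**
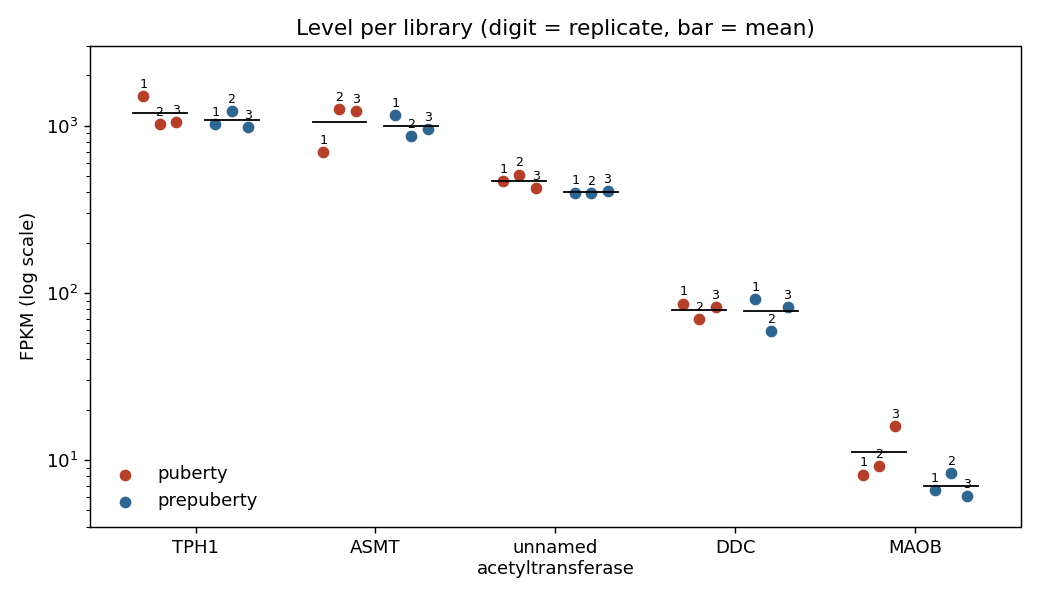
Each point is the FPKM of 1 library on a log axis, with its replicate number, and each bar a group mean, puberty in red and prepuberty in blue. The unnamed acetyltransferase is ENSCHIG00000021269. The 2 groups overlap in TPH1, ASMT, DDC and MAOB, and the group means of TPH1 and ASMT are close, although TPH1 over ASMT is 2.15 in puberty replicate 1.

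The balance between the enzymes also varied more within a stage than between stages. The ratio of ASMT to TPH1 in FPKM was 0.464, 1.23 and 1.17 in puberty replicates 1, 2 and 3 and 1.14, 0.703 and 0.972 in prepuberty replicates 1, 2 and 3. Puberty replicate 1 and prepuberty replicate 2, the 2 libraries with the most TPH1, were those with the lowest ASMT. On the log2 scale the ratio averaged -0.19 ± 0.79 at puberty and -0.12 ± 0.35 before puberty (SD, n = 3 each; difference -0.07, 2-sided exact permutation p = 1, or 1 adjusted over 2 ratios).

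The ratio of DDC to TPH1 was 0.0576, 0.0684 and 0.0788 at puberty and 0.0903, 0.0481 and 0.0845 before puberty. Its log2 value averaged -3.88 ± 0.23 at puberty and -3.80 ± 0.50 before puberty (SD, n = 3 each; difference -0.08, 2-sided exact permutation p = 0.8, or 1 adjusted over 2 ratios). With 3 libraries against 3, the smallest p this exact test allows is 0.1. The prepuberty replicate with the lowest ratio, replicate 2, was again the library with high TPH1 and low DDC.

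MAOB was the only member measured of the breakdown side and the one with the largest estimated difference. MAOB prefers phenylethylamine over serotonin as a substrate, and in human and rodent brain it is found in astrocytes and in serotonin neurons. It lies on an unplaced scaffold and had 184, 189 and 355 counts in puberty replicates 1, 2 and 3 and 142, 188 and 129 counts in prepuberty replicates 1, 2 and 3. Puberty replicate 3 stood well above the other 5 libraries, and prepuberty replicate 2 lay at the level of the other 2 puberty libraries. The mean was 12.3 ± 4.67 CPM at puberty and 7.74 ± 1.32 CPM before puberty (SD, n = 3 each), with a log2 fold change of 0.66 (SE 0.27, 95% interval 0.05 to 1.27, adjusted p = 0.14, unadjusted p = 0.036). Without puberty replicate 3 the log2 fold change was 0.31 (adjusted p = 0.40). Counting error was 5.31% to 8.80% of the count in a library.

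MAOB belongs to the amine oxidase family in the deposited annotation, which labels 12 genes with it, 10 of them tested. SMOX, which oxidises spermine, rose 1.5-fold (adjusted p = 0.016) and KDM1B, a histone demethylase, fell 1.42-fold (adjusted p = 0.015). These are 2 of 10, against 11.5% of all tested genes. SMOX also lost its call without puberty replicate 2 or prepuberty replicate 3 (adjusted p = 0.053 for each). An unnamed locus with the same domain had 43, 35 and 83 counts at puberty and 34, 35 and 32 before puberty, with puberty replicate 3 again the highest (log2 fold change 0.66, adjusted p = 0.26). It lies on the same unplaced scaffold as MAOB, from 28171527 to 28262421 on the plus strand. MAOB lies there from 21656429 to 21680007 on the minus strand. Whether the reads of this locus are related to those of MAOB was not tested. The other unnamed tested genes of the family were more abundant and showed no such rise. ENSCHIG00000014715 averaged 38.7 CPM at puberty and 41.7 CPM before puberty (log2 fold change -0.11, adjusted p = 0.53). ENSCHIG00000008041 averaged 37.5 CPM at puberty and 35.6 CPM before puberty (log2 fold change 0.08, adjusted p = 0.67).

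Astrocyte markers are given beside MAOB because MAOB is found in these cells. Their summed level was 6414 to 6623 CPM at puberty and 4384 to 5971 CPM before puberty. Of 11 markers 2 were called, both higher, against 11.5% of all tested genes called and 5.85% higher. ALDH1L1, a folate enzyme of astrocytes, rose 1.53-fold (adjusted p = 0.017) and ALDOC, the aldolase of astrocytes, 1.29-fold (adjusted p = 0.044). The call of ALDH1L1 was also lost without puberty replicate 2 or prepuberty replicate 3 (adjusted p = 0.054 and 0.055), and that of ALDOC without any 1 library other than prepuberty replicate 2 (adjusted p = 0.084 to 0.13). GFAP, the astrocyte filament protein, made up most of the sum and was not called (1.42-fold, adjusted p = 0.078). The estimates for AQP4, a water channel, SLC1A2, a glutamate carrier, and GJA1, a gap junction protein, were -0.28, -0.29 and -0.16 on the log2 scale (adjusted p = 0.23, 0.49 and 0.54). Those for GJB6, SLC1A3, S100B, FABP7 and SOX9 were 1.9, 0.48, 0.35, 0.17 and 0.01 (adjusted p = 0.075, 0.23, 0.14, 0.31 and 0.96). The list median log2 fold change was 0.35. With edgeR 5 of the 11 had an unadjusted p under 0.05, against 4807 of the 16588 genes tested. DESeq2 called 4 of the 11 markers and limma-voom 3. In puberty replicates 1, 2 and 3 the astrocyte sum was 6611, 6623 and 6414 CPM, and MAOB was at 9.04, 10.1 and 17.6 CPM. These puberty sums lay too close together for their order to be read against MAOB. In prepuberty replicates 1, 2 and 3 the astrocyte sum was 4384, 5971 and 4549 CPM. MAOB was there at 7.30, 9.23 and 6.70 CPM, and replicate 2 was highest in both. Within each stage the sums of microglia, mast cell and endothelial markers followed the order of MAOB, and those of the other marker lists did not. Each order rests on 3 libraries, and its meaning was not tested. The part of astrocyte content in the MAOB values was not tested.

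**Figure D3:**
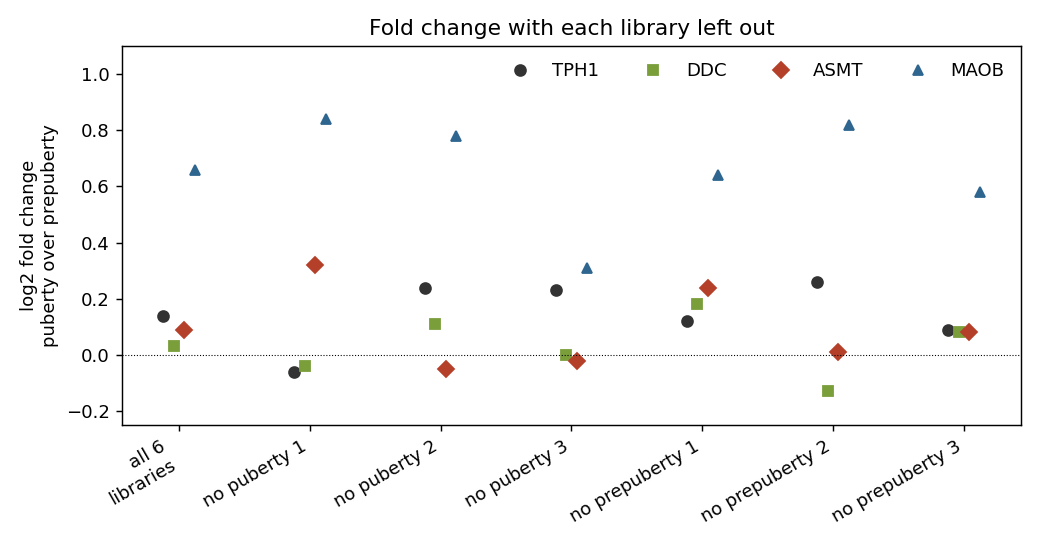
Log2 fold changes of puberty over prepuberty for TPH1, DDC, ASMT and MAOB with all 6 libraries and with each library left out in turn. MAOB stays above 0, between 0.31 and 0.84, and TPH1, DDC and ASMT lie on both sides of 0.

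By pattern over the 6 libraries, different genes lay closest to each member. The measure was Pearson's r of log2 CPM against 8758 other named genes with a mean of at least 10 CPM, and the highest values among so many genes are high by selection. RARS2 (r = 0.98), SNX12 (0.968) and MGAT5B (0.965) lay closest to TPH1. CFAP74 (r = 0.973), ABCC10 (0.970) and SMG5 (0.966) lay closest to DDC. GEMIN6 (r = 0.975), MDK (0.974) and CCSAP (0.961) lay closest to ASMT. DGKA (r = 0.994), ROBO4 (0.990) and KLF16 (0.972) lay closest to MAOB. No gene was shared between these sets.

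Around the members, 83 other genes of the pathway were listed, 69 had a row and 45 were tested. Of these 5 rose and 0 fell, 11.1% of those tested, close to the 11.5% of all tested genes. HDC is among the 5, and its direction was fixed by the count filter, as given below. DESeq2 called 4 higher and 0 lower. It called 0 in each pathway list below for which 0 calls by edgeR are given, and so did limma-voom. Across all tested genes, which are not independent replicates, fold changes were higher in shorter genes (rho = -0.28 with listed length).

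The cofactor of TPH1, tetrahydrobiopterin, had the most calls among the pathway lists. Of 5 genes tested, 3 rose and 0 fell, against 5.85% of all tested genes higher and 5.64% lower. DESeq2 also called 3 of the 5, but limma-voom only 1. The list median log2 fold change was 0.41, against 0.005 for all tested genes. PCBD2, a pterin dehydratase that acts in recycling the cofactor, had 60.7, 64.2 and 62.0 CPM at puberty and 42.2, 44.1 and 42.2 CPM before puberty and rose 1.45-fold (adjusted p = 0.014). The 2 groups were far apart relative to their spread. QDPR, which regenerates the cofactor, rose 1.33-fold to 87.9 ± 3.23 CPM at puberty, against 66.3 ± 9.63 CPM before puberty (adjusted p = 0.048). SPR, which completes its synthesis, rose 1.27-fold to 112 ± 8.96 CPM at puberty, against 88.4 ± 6.77 CPM before puberty (SD, n = 3 each; adjusted p = 0.049). GCH1, the entry enzyme, was not called (log2 fold change 0.17, adjusted p = 0.41). The calls of QDPR and SPR were lost whichever single library was left out, with adjusted p-values of 0.061 to 0.12 and 0.056 to 0.14. With offsets for gene length they were lost too (adjusted p = 0.15 and 0.061). The same held with limma-voom (0.053 and 0.057), with the replicate block (0.068 and 0.11) and on both FPKM scales.

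Other cofactors gave 1 call. AHCY hydrolyses S-adenosylhomocysteine, the product that ASMT and all other methyltransferases leave behind. It had 630, 506 and 422 CPM at puberty and 306, 337 and 385 CPM before puberty and rose 1.51-fold (95% interval of the log2 fold change 0.25 to 0.94, adjusted p = 0.040). All puberty libraries lay above all prepuberty libraries, but the gap between puberty replicate 3 and prepuberty replicate 3 was narrow. The call was lost without any 1 library other than puberty replicate 3, with adjusted p-values of 0.060 to 0.13. MAT2A, which makes S-adenosylmethionine, was 1.21-fold lower without a call (adjusted p = 0.13). Neither the 3 genes of pyridoxal phosphate metabolism, which provides the cofactor of DDC, nor the 2 of flavin supply, the cofactor of MAOB, were called.

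Of the 9 carriers of tryptophan and serotonin tested, 0 were called by edgeR, with 1 at an unadjusted p under 0.05 and a list median log2 fold change of -0.30. SLC3A2, the heavy chain of the large neutral amino acid transporter, averaged 267 ± 52.0 CPM at puberty and 258 ± 35.9 CPM before puberty. SLC7A5, its light chain, averaged 152 ± 25.5 CPM at puberty and 179 ± 21.8 CPM before puberty (SD, n = 3 each; adjusted p = 0.31). The serotonin transporter gene SLC6A4 had 3402, 2033 and 2430 counts at puberty and 2945, 3486 and 3161 before puberty (adjusted p = 0.24, with a 95% interval of -0.64 to 0.05 on the log2 scale). Both vesicular monoamine transporter genes were scarce, SLC18A1 with 56 to 61 counts at puberty and 35 to 58 before puberty, and SLC18A2 with 28 to 36 counts at puberty and 38 to 43 before puberty.

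TPH2, the tryptophan hydroxylase of serotonin neurons, was present at trace levels beside TPH1. It had 12, 17 and 15 counts at puberty and 38, 36 and 25 counts before puberty. The groups did not overlap, and the log2 fold change was -1.16 (95% interval -1.98 to -0.34, adjusted p = 0.070). Of the other genes that act on monoamines or their aldehydes, 0 of 5 tested were called by edgeR, with 2 at an unadjusted p under 0.05. ALDH9A1, an aldehyde dehydrogenase, averaged 186 ± 1.28 CPM at puberty and 158 ± 18.6 CPM before puberty (adjusted p = 0.15), and AKR1A1, an aldehyde reductase, 68.8 ± 0.587 CPM at puberty and 61.0 ± 2.18 CPM before puberty (SD, n = 3 each; adjusted p = 0.18).

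HDC, which makes histamine, passed the count filter only through its puberty libraries, so its direction was fixed by the filter. It had 12, 14 and 13 counts at puberty and 0, 1 and 0 counts before puberty, a ratio of summed counts of 37.6 per library size with a 95% counting interval of 6.37 to 1520 (adjusted p = 0.014). The mast cell markers FCER1A, a chain of the IgE receptor, and CPA3, a mast cell protease, were called too, and they also passed the filter only through the puberty libraries. FCER1A had 15, 22 and 11 counts at puberty and 1, 3 and 0 before puberty (adjusted p = 0.025), and CPA3 25, 11 and 25 counts at puberty and 4, 5 and 0 before puberty (adjusted p = 0.044). The 3 called genes among the 5 tested mast cell markers are therefore no support for a direction of that list, and DESeq2 gave none of the 3 an adjusted p. The call of CPA3 was lost whichever library was left out (adjusted p = 0.07 to 0.12), with length-dependent offsets (0.059) and with limma-voom (0.051). That of FCER1A was lost without puberty replicate 1 or 2 or prepuberty replicate 1 or 3 (adjusted p = 0.057 to 0.10). HDC is itself on that list. KIT, the first marker of the list, was at 0.15 on the log2 scale (adjusted p = 0.81), and the third, MS4A2, had 5, 11 and 2 counts at puberty and 0, 0 and 2 before puberty. Of 8 listed genes 7 had a row, and the summed level was 31.9 to 62.9 CPM at puberty and 29.5 to 45.0 CPM before puberty, most of it from KIT. The part of mast cells in the HDC values was not tested.

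TH, the rate-limiting enzyme of catecholamine synthesis, was set aside by the count filter and was picked after its values were seen. It had 17, 20 and 10 counts at puberty and 0, 0 and 2 counts before puberty, a ratio of 22.7 per library size with a counting interval of 5.94 to 193. With no count filter its adjusted p was 0.013. DBH, the next enzyme after dopamine, averaged 1.92 CPM at puberty and 1.49 CPM before puberty (adjusted p = 0.53). The noradrenaline transporter gene SLC6A2 had 0 counts in every puberty library and 1, 0 and 1 before puberty.

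The kynurenine route, which competes for tryptophan, was little expressed. Its entry enzymes TDO2 and IDO1 had at most 1 and 6 counts in any library. Of 4 genes tested, 0 were called by edgeR, with 1 at an unadjusted p under 0.05. KYAT1, a transaminase of the route, averaged 50.0 ± 8.70 CPM at puberty and 39.2 ± 3.79 CPM before puberty (SD, n = 3 each; adjusted p = 0.13), and KYAT3, a second transaminase, 13.8 ± 0.304 CPM at puberty and 11.9 ± 2.66 CPM before puberty (adjusted p = 0.45).

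Melatonin receptor transcripts were not detectable at this depth. MTNR1A had 0 counts in every library and MTNR1B 1 count in all. Of the genes of melatonin receptors and clearance, 2 were tested and 0 called by edgeR, with 0 at an unadjusted p under 0.05. These were NQO2, a quinone reductase that binds melatonin, at 67.6 ± 10.2 CPM at puberty and 56.8 ± 8.23 CPM before puberty (SD, n = 3 each; adjusted p = 0.27), and CYP1B1 (adjusted p = 0.32).

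Of 14 serotonin receptor genes, 4 were tested and 0 called by edgeR, with 1 at an unadjusted p under 0.05. HTR2C had 13, 218 and 0 counts in puberty replicates 1, 2 and 3 and 4, 13 and 16 before puberty. Puberty replicate 2 was far above the other 5 libraries. The same library stood apart in TTR, and HTR2C is known from choroid plexus. The part of choroid plexus in the HTR2C values was not tested. HTR2B averaged 3.87 ± 0.418 CPM at puberty and 3.31 ± 0.795 CPM before puberty (SD, n = 3 each; adjusted p = 0.61). Of the YWHA adaptor proteins, which bind phosphorylated tryptophan hydroxylase and AANAT, 4 were tested and 0 called by edgeR, with 0 at an unadjusted p under 0.05. YWHAB and YWHAG, the 2 with the highest mean CPM, had log2 fold changes of -0.03 (adjusted p = 0.87) and -0.06 (adjusted p = 0.70).

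**Figure D4:**
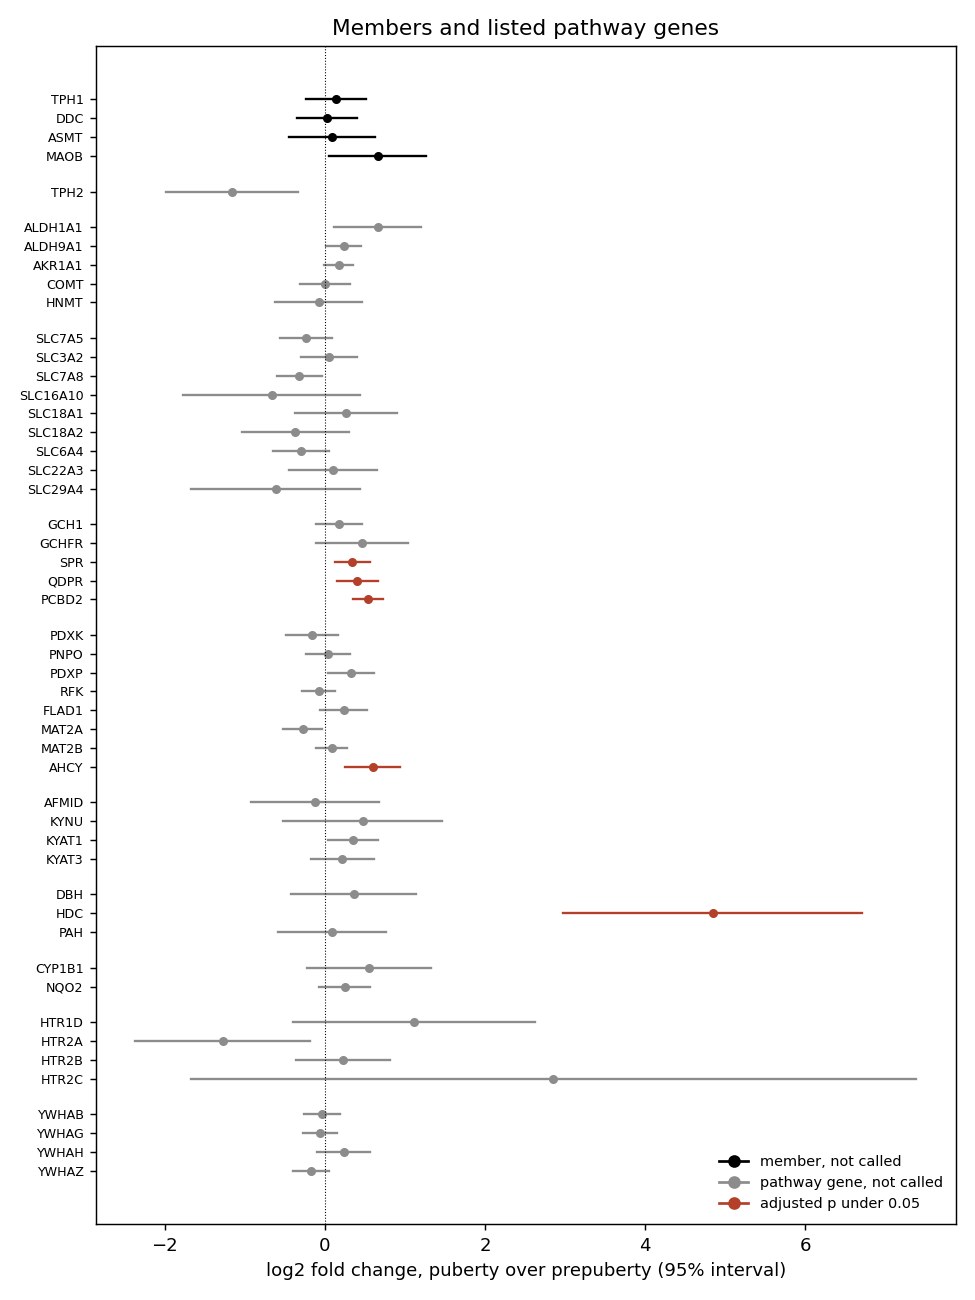
Log2 fold changes of puberty over prepuberty with 95% intervals for the 4 members (black) and 45 listed pathway genes, grouped by list in the order synthesis, breakdown, transport, tetrahydrobiopterin, other cofactors, kynurenine, other amines, melatonin receptors and clearance, serotonin receptors and YWHA proteins. Red marks the 5 genes with an adjusted p under 0.05, all higher at puberty. HDC is among them, and its direction was fixed by the count filter.

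Markers of cell types were read beside these results. Of 88 tested, 8 rose, the 3 mast cell genes included, and 2 fell, 11.4% against 11.5% of all tested genes. Among 12 pinealocyte markers, ISL2, a homeobox gene, rose 1.42-fold (adjusted p = 0.016) and RBP3, a retinoid-binding protein, fell 1.56-fold (adjusted p = 0.040). The other defining markers, CRX and OTX2, were not called (adjusted p = 0.53 and 0.64), and the list median on the log2 scale was 0.13. The call of RBP3 was lost whichever single library was left out (adjusted p = 0.060 to 0.10) and with offsets for gene length (adjusted p = 0.079).

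Microglia and macrophage markers summed to 168 to 294 CPM at puberty and 137 to 183 CPM before puberty. Of 10 markers 1 was called by edgeR, 5 by DESeq2 and 0 by limma-voom. With edgeR 6 had an unadjusted p under 0.05, against 4807 of the 16588 genes tested. The edgeR call was TYROBP, a signalling adaptor, which rose 2.22-fold (adjusted p = 0.041) and lost the call without puberty replicates 2 or 3 or any 1 prepuberty library (adjusted p = 0.080 to 0.13). With length-dependent offsets its adjusted p was 0.096 and with limma-voom 0.081. On the log2 scale AIF1, CSF1R and C1QA were at 0.55, 0.63 and 0.67, without a call (adjusted p = 0.23, 0.12 and 0.11). Among 9 pericyte markers CSPG4, also of oligodendrocyte precursors, rose 1.43-fold (adjusted p = 0.020). It lost the call without puberty replicate 1 or 2 or prepuberty replicate 1 or 3 (adjusted p = 0.052 to 0.066), while PDGFRB, RGS5 and ABCC9 were at -0.23, -0.42 and -0.47 on the log2 scale (adjusted p = 0.40, 0.21 and 0.50).

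Among 10 neuron markers MAP2, a microtubule protein, fell 1.45-fold (adjusted p = 0.015), and SNAP25, SYT1 and STMN2 were at -0.03, -0.15 and 0.37 on the log2 scale (adjusted p = 0.83, 0.43 and 0.091). Levels on this list were uneven. SLC17A7 averaged 2845 CPM at puberty and 2468 CPM before puberty, whereas RBFOX3 averaged 4.48 CPM at puberty and 2.18 CPM before puberty. Which cells the MAP2 reads came from was not tested. Markers of monoamine neurons gave 0 calls of 3 tested by edgeR, with TPH2 at an unadjusted p under 0.05. Of their defining genes SLC6A4 is also a pinealocyte gene in rodents, and FEV had at most 3 counts in any library. No call was made by edgeR among 7 oligodendrocyte, 10 endothelial, 7 fibroblast and 4 choroid plexus markers, of which 5, 2, 1 and 0 had an unadjusted p under 0.05, while DESeq2 called 2 of the oligodendrocyte markers. Of all 16588 genes tested with edgeR, 4807 had an unadjusted p under 0.05. The median log2 fold changes of the oligodendrocyte, endothelial, fibroblast and choroid plexus lists were -0.44, -0.14, 0.07 and 2.08. Oligodendrocyte markers summed to 245 to 260.2 CPM at puberty and 263 to 381 CPM before puberty, without overlap. Endothelial markers summed to 429.6 to 523 CPM at puberty and 423 to 554 CPM before puberty, and fibroblast markers to 525 to 770.3 CPM at puberty and 599.8 to 879 CPM before puberty. Choroid plexus markers summed to 289 to 10250 CPM at puberty and 119 to 400.2 CPM before puberty, the highest value being that of puberty replicate 2. Pericyte markers summed to 234 to 295 CPM at puberty and 222 to 322 CPM before puberty, neuron markers to 5182 to 6062 CPM at puberty and 5089 to 5877 CPM before puberty, and monoamine neuron markers to 114 to 170.2 CPM at puberty and 155 to 175 CPM before puberty. The part of any of these cell types in the members' values was not tested.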

How the data were processed

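Of the deposited tables, one gives the authors' whole-number read counts of each gene, not normalized. The other gives the authors' FPKM, which, tested on the deposited values, is the count over the gene's listed length times a factor per library (largest relative deviation 5.11e-15). RNA was isolated with TRIzol and libraries prepared with a NEBNext Ultra kit, per the labels' protocols. DESeq2 1.20.0, featureCounts 1.5.0-p3, HISAT2 2.0.5, fastp and CASAVA 1.8 appear in the submitters' processing notes, with no role, beside human builds, although the gene identifiers are goat Ensembl ones. Annotation release and strand setting are not given in the sources used here. Positions are as the tables list them.

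Genes kept by filterByExpr (minimum count 10) numbered 16588 and were tested with edgeR 4.0.16 in R 4.3.3 (TMM scaling, robust quasi-likelihood F test, 3 puberty against 3 prepuberty libraries, no covariate). P-values were Benjamini-Hochberg adjusted over all tested genes and calls made under 0.05. Biological variation (common coefficient) was 0.18. Standard errors and 95% intervals were derived from each F statistic. Intervals on counts cover counting error only. Within groups, pairs of libraries had a chi-square per degree of freedom of 16.5 to 36.9 across genes, so no library was a copy of another. The fit was tested on simulated data with the common coefficient of variation for all genes and 50 genes changed at each fold and direction. There 88.0% and 72.0% of genes changed 2-fold up and down were called, but only 10.0% of genes changed 1.5-fold in each direction. Far fewer genes changed there than were called in these data, which makes the adjusted threshold stricter. These shares are therefore no measure of the power in these data.

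Members, pathway lists and marker lists were chosen with earlier results of these data known. By rule, named genes are the members and the 3 genes most similar to each member. Of each pathway list they are up to 6 called genes by smallest p (where none was called, the 2 with the highest mean CPM). Of each marker list they are up to 4 called genes and the first 3 (given only as summed levels where a list had no call). Other genes were named outside this rule. Among them are GCH1, MAT2A, SLC6A4, SLC18A1, SLC18A2, DBH, SLC6A2, TDO2, IDO1, MTNR1A, MTNR1B, GAD1, TH, the amine oxidase family genes and the further astrocyte markers. The alternatives were RLE scaling, no filter, a filter of 1 CPM in 3 libraries, DESeq2 1.42.0, limma-voom (limma 3.58.1), a replicate block, offsets following gene length (a lowess trend per library), both together, limma on log2(FPKM + 1) and log2(FPKM + 0.1), which understate changes of low genes, and leaving out each library.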

Additional observations from a re-analysis of the deposited data

How the results depend on the processing

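The 4 members stayed uncalled, 0 higher and 0 lower, under every alternative run. Leaving out 1 library gave log2 fold changes of -0.06 to 0.26 for TPH1, -0.13 to 0.18 for DDC, -0.05 to 0.32 for ASMT and 0.31 to 0.84 for MAOB. With the replicate block and length-dependent offsets together ASMT was at -0.02 (adjusted p = 0.97). Differences of the log2 ratios ranged from -0.37 to 0.09 for DDC over TPH1 and from -0.32 to 0.39 for ASMT over TPH1 with 1 library left out. Libraries of the same replicate number showed no likeness across stages (correlations of 0.053, -0.097 and -0.096 for numbers 1, 2 and 3). Libraries of different numbers gave -0.034 to 0.122. With 3 libraries per group this cannot settle whether the numbers mark a shared batch, which was not tested. With that replicate block 366 genes were higher and 354 lower, in place of 971 and 935. With block and length-dependent offsets 1 was higher and 1 lower, and with length-dependent offsets alone 475 and 455. Lower calls numbered 598 on log2(FPKM + 1) and 618 on log2(FPKM + 0.1). With 1 library left out, higher calls ran from 0 to 728 and lower calls from 0 to 540. The 0 was without prepuberty replicate 1, where edgeR had 3924 genes at an unadjusted p under 0.05, so the calls of PCBD2 and HDC were lost there too (adjusted p = 0.061 and 0.064). Pathway genes called higher, 5 in all, numbered 3 with limma-voom or length-dependent offsets, 2 with the replicate block or on either FPKM scale, 0 with block and length-dependent offsets, and 0 to 4 with 1 library left out. Those called lower numbered 0 to 2 with 1 library left out. Marker genes called higher and lower, 8 and 2 in all, numbered 13 and 4 with DESeq2, 5 and 1 with the replicate block, 0 and 0 with block and length-dependent offsets, 3 and 1 on log2(FPKM + 1) and 5 and 1 on log2(FPKM + 0.1). Higher markers were 5 with the filter of 1 CPM, and 0 to 10 with 1 library left out, with 0 to 2 lower. The unnamed locus beside ASMT reversed to -0.09 with limma-voom and on both FPKM scales, to -0.11 with the replicate block and -0.03 with block and length-dependent offsets. Leaving out 1 library gave -0.47 to 0.62. The causes were not tested. Ratios with MAOA could not be computed. Counting error of the synthesis enzymes was at most 1.24% of a count, so depth does not limit their comparison.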
